A study of Mus musculus with 43 samples.

Results

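The livers described here carry both lesions of the series, a homozygous PiZ transgene and loss of the insulin receptor in the liver (ZZ LIRKO), and were compared with wild-type (WT) livers to see how far they stood from normal. They were chosen by genotype label, 7 ZZ LIRKO and 3 WT libraries out of 17 in the homozygous table and 43 in the series. Each of the 17 libraries came from the liver of 1 male mouse, 4 to 5 months old, of a C57BL6/J and FVBN cross. The same table holds 3 mice with the homozygous transgene alone (ZZ) and 4 with receptor loss alone (LIRKO), which served to show where the doubly mutant livers differed from either lesion. None of these 4 genotypes carries the FOXO1 knockout that another group of the series has. The labels do not name the promoter of the transgene, the Cre line behind the receptor loss or any littermates.

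PiZ is the Z form of human alpha-1-antitrypsin, a protease inhibitor that hepatocytes secrete. The Z form folds poorly, polymerises and is retained in the endoplasmic reticulum (ER), and PiZ mice are a model of the liver disease that follows. LIRKO stands for liver insulin receptor knockout: insulin normally acts through its receptor, IRS proteins and AKT to keep the transcription factor FOXO1 out of the nucleus, so gluconeogenic genes are held down. In the mouse, the male and female forms of liver gene expression are set largely by the pattern of growth hormone release, read in hepatocytes by the growth hormone receptor and STAT5B.

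Expression is given as log2 CPM (CPM, reads of a gene scaled to a common library size, on a log2 scale with 0.5 reads added), and a difference is in log2 units ± SE from limma with its adjusted p over 13690 genes. Rose, fell and changed are used for an adjusted p under 0.05. Where limma called 0 genes of a list in a direction, an unadjusted p under 0.05 called 0 against WT, 0 to 1 against ZZ and 0 to 3 against LIRKO, and voom weights called 0, 0 and 0 to 1. Values are listed in the order of mice 1564, 1586 and 1601 for WT, 1682, 1809 and 1846 for ZZ, and 1468, 1474, 1483 and 1600 for LIRKO, and the 7 ZZ LIRKO values as lowest, median and highest. The ZZ LIRKO libraries held 38.2 M to 82.8 M reads (mean 62.0 ± 16.1 M, SD) and the WT libraries 45.8 M to 77.7 M (57.1 ± 17.8 M), and an exact two-sided permutation test of the means gave p = 0.717. The digestive enzyme gene Prss2, a marker of pancreas, stood at 5.87 log2 CPM in WT mouse 1586 and 0.88 in WT mouse 1601, against -6.43 in WT mouse 1564 and -7.18 to -2.02 in ZZ LIRKO. ZZ mouse 1846 stood at 1.04. Of 18 listed genes of pancreas, fat and muscle 12 passed the filter on low values, which such libraries could carry by themselves. The 7 that were lower in ZZ LIRKO became 1 without WT mouse 1586 and 2 without WT mouse 1601. The part of such tissue in other results was not tested, and leaving out the 3 libraries above 0 log2 CPM of Prss2 leaves WT mouse 1564 by itself in its group and ZZ with 2 mice, with the spread taken from all groups. In that setting 17 of the named genes lost their call against WT: Ahsg, Alb, B2m, Cd163, Chac1, Col1a1, Cpt2, E2f8, Hmox1, Ighm, Mki67, Mme, Ppp1r3b, Rps9, Trib1, Vcam1 and Xbp1 (adjusted p from 0.0509 to 0.526). All 17 kept their direction, at 0.501 to 1.04 times the difference with every library (median 0.683). What the lost calls owe to changed differences and to a group of 1 mouse was not tested. Against ZZ, Gpnmb and C8g lost their call (adjusted p = 0.0754 and 0.0885). Counts of the gene lists fell too, among them matrix genes higher from 27 to 12, FOXO1 targets higher from 11 to 5, lipogenic genes lower from 11 to 3, NF-kB genes higher from 10 to 3, respiratory chain genes higher from 38 to 9 and ribosomal protein genes higher from 45 to 0. As a check of the tissue, all 10 genes listed as defining hepatocytes passed the filter, with Alb, the albumin gene, at 15.33 to 16.03 log2 CPM in ZZ LIRKO. Of the 10, 3 were higher (1 without WT mouse 1601) and 3 lower than in WT, 30% each. The shares of all genes were 21.1% and 19.7%.

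A large share of the transcriptome differed between ZZ LIRKO and WT livers. Of 13690 genes tested, 5577 passed (40.7%), with 2885 higher (21.1%) and 2692 lower (19.7%) in ZZ LIRKO. For 4143 genes (30.3%) the ranges of the 7 and the 3 mice did not overlap. The median gene shifted by -0.02. Differences of at least 2 log2 units passed for 510 genes, 329 up and 181 down, and those of at least 4 for 114, 77 up and 37 down. Without the libraries above 0 log2 CPM of Prss2 the count was 2467, with 1395 higher and 1072 lower.

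Distance from WT was summarised over all genes weighed alike. The median absolute difference from WT was 0.31 log2 units in ZZ LIRKO, 0.30 in ZZ and 0.28 in LIRKO, and 30.3% of genes passed for ZZ against WT and 27.8% for LIRKO against WT. These 3 comparisons share the WT mice and differ in the number of mutant mice, so the counts are given side by side only. Mouse by mouse, the median gene lay 0.317 to 0.385 log2 units from the WT mean in ZZ LIRKO. The same range was 0.27 to 0.37 in ZZ, 0.29 to 0.32 in LIRKO and 0.12 to 0.13 in the WT mice themselves. Each WT mouse forms part of the WT mean, which lowers the WT distances, so they are no like baseline for the mutant mice. Group differences from WT of at least 1 log2 unit were found for 12.76% of genes in ZZ LIRKO, 13.5% in ZZ and 9.72% in LIRKO. ZZ LIRKO differed from ZZ in 3666 genes (26.8%), with 1811 higher (13.2%) and 1855 lower (13.6%), and from LIRKO in 1445 (10.6%), with 935 higher (6.83%) and 510 lower (3.73%). The median absolute difference was 0.24 from ZZ and 0.16 from LIRKO. Without LIRKO mouse 1468 the count against LIRKO was 621, without LIRKO mouse 1483 it was 906, and without ZZ mouse 1682 the genes lower than in ZZ numbered 1232.

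The leading components of variation separated all 4 groups. The first principal component, with 32.8% of the variance, ran from WT at 70.4 to 79.9 through ZZ at 4.84 to 22.4 and LIRKO at -12.5 to -2.23 to ZZ LIRKO at -47.9 to -26.3. No ZZ LIRKO mouse overlapped another group on it. The second component, with 26.2%, set ZZ (-69.0 to -57.3) against LIRKO (36.2 to 45.3), with ZZ LIRKO between them at -14.8 to 10.3.

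**Figure D1:**
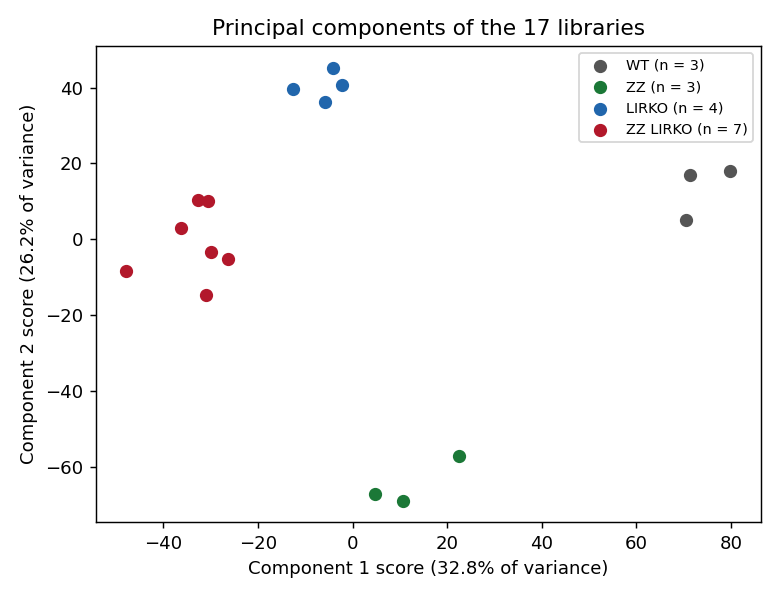
Principal components of the 17 libraries over the genes tested, with the first component on the x axis and the second on the y axis (scores, no unit), 1 point per mouse coloured by group. The 7 ZZ LIRKO mice sit at the left end, from -47.9 to -26.3, opposite the 3 WT mice at 70.4 to 79.9, and lie between ZZ and LIRKO on the second component.

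Insr, the targeted gene, which encodes the insulin receptor (chromosome 8, 3122061 to 3279617, GRCm38 with GENCODE M21 genes, as for every position given), stood at 6.96, 6.94 and 7.14 log2 CPM in WT and at 5.44, 5.73 and 5.87 in ZZ LIRKO. All 7 ZZ LIRKO mice were below all 3 WT mice, and the difference was -1.31 ± 0.11 (adjusted p = 4.47e-07). Insr was also lower than in ZZ (-0.79 ± 0.11, adjusted p = 8.46e-05), whereas the difference from LIRKO was -0.03 ± 0.10 (adjusted p = 0.892). Foxo1 stood at 5.14, 4.82 and 4.96 in WT and 4.34, 4.59 and 5.91 in ZZ LIRKO, with 1 mouse, 1876, above all WT mice. Its difference of -0.20 ± 0.25 missed the threshold (adjusted p = 0.552), and passed as a fall without mouse 1876 (-0.38). The human transgene was not analysed here, and the mouse Serpina1 genes, its endogenous counterparts, share sequence, so their counts are uncertain. Serpina1e (-4.29 ± 1.07, adjusted p = 0.00466) and Serpina1c (-1.58 ± 0.26, adjusted p = 0.000237) were lower in ZZ LIRKO, with all 7 mice below WT in both. Differences for Serpina1a, Serpina1b and Serpina1d were -0.29, -0.13 and -0.43 and did not pass.

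Most of the 12 largest increases over WT came from genes with few reads in WT livers. Sult2a1 and Sult2a2, sulfotransferases of steroids and bile acids, rose by 11.41 ± 1.66 (adjusted p = 7.08e-05) and 10.53 ± 1.18 (adjusted p = 6.58e-06). The WT libraries held 0 to 4 and 2 to 4 reads of them and the ZZ LIRKO libraries 645 to 14807 and 853 to 14622, so the size of the difference rests on few WT reads, and the split of reads between these near-identical genes is uncertain. The fetal non-coding RNA H19 (8.05 ± 1.18, adjusted p = 7.63e-05), the cell surface gene Igdcc4 (7.53 ± 0.84, adjusted p = 6.17e-06), the Ras regulator gene Rasal1 (7.20 ± 0.31, adjusted p = 2.22e-10) and Gldn, which encodes gliomedin (6.74 ± 0.58, adjusted p = 6.87e-07), also rose from WT values below 0 log2 CPM. So did Ppp1r3g, a glycogen-targeting subunit of protein phosphatase (6.59 ± 0.65, adjusted p = 2e-06). With voom weights, Sult2a1, Sult2a2, H19 and Igdcc4 did not pass (adjusted p = 0.207, 0.168, 0.214 and 0.0969), at differences of 11.40, 10.52, 8.15 and 7.44.

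A further 3 of the 12 were already above 0 log2 CPM in every WT mouse. Lepr, the leptin receptor gene (chromosome 4, 101717404 to 101815352), stood at 1.95, 2.61 and 2.16 in WT and at 8.63, 9.05 and 9.59 in ZZ LIRKO, a 113-fold rise (6.81 ± 0.22, adjusted p = 1.22e-11). Ranges were narrow in both groups and lay more than 6 log2 units apart. Igfbp1, which encodes a secreted IGF-binding protein and is a classical FOXO1 target (chromosome 11, 7197782 to 7202546), stood at 5.11, 3.59 and 4.54 in WT and 10.52, 11.47 and 12.26 in ZZ LIRKO, 122-fold higher (6.92 ± 0.39, adjusted p = 4.44e-09). The steroid hydroxylase gene Cyp2a4, which shares reads with Cyp2a5, rose by 6.68 ± 0.72 (adjusted p = 4.54e-06). That the groups did not overlap was a condition for these rises and for the largest falls.

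The Igfbp1 promoter is shown because the gene was among the 12 largest rises and is a known FOXO1 target. It is the RefSeq window on GRCm38.p6, chr11:7197537-7197836, plus strand, from 250 bases before to 50 bases after the start, 5′ to 3′, with the match to a FOXO-type motif in capitals. Searched were TGTTTAC and TGTTTTG on both strands, without overlap between matches. The only match was TGTTTTG read on the minus strand, and 9.63% of 32851 promoter windows held at least 1 of these motifs.
Igfbp1: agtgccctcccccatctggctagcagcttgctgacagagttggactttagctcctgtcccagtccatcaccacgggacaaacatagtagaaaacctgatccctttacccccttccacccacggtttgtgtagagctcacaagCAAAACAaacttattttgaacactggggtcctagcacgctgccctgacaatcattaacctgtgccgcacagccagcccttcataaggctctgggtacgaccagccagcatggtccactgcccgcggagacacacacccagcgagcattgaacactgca

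Among genes with a mean of at least 2 log2 CPM, the 12 largest decreases included a set of male-type genes. Elovl3 and Hsd3b5, below that mean and so not ranked, fell further (-10.13 and -8.04). Major urinary protein genes, which male livers secrete as scent carriers, changed by -6.23 ± 0.50 (Mup3), -4.84 ± 0.67 (Mup21) and -3.79 ± 0.60 (Mup20) (adjusted p = 3.28e-07, 4.52e-05 and 0.000154). Reads are shared within this family, and between the fatty acid hydroxylases Cyp4a12a (-4.94 ± 0.40, adjusted p = 3.62e-07) and Cyp4a12b (-3.71 ± 0.73, adjusted p = 0.000906), so single members are uncertain. Inhbe, which encodes the secreted inhibin beta E (-4.77 ± 0.47, adjusted p = 1.69e-06), the carboxylesterase Ces3b (-4.14 ± 0.62, adjusted p = 9.63e-05), the carbonic anhydrase Car3 (-4.09 ± 0.55, adjusted p = 4.07e-05), the polyploidy factor E2f8 (-3.92 ± 0.67, adjusted p = 0.000302) and the cystine transport subunit Slc3a1 (-3.64 ± 0.59, adjusted p = 0.000194) fell as well. Serpina1e was also among the 12 largest falls.

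**Figure D2:**
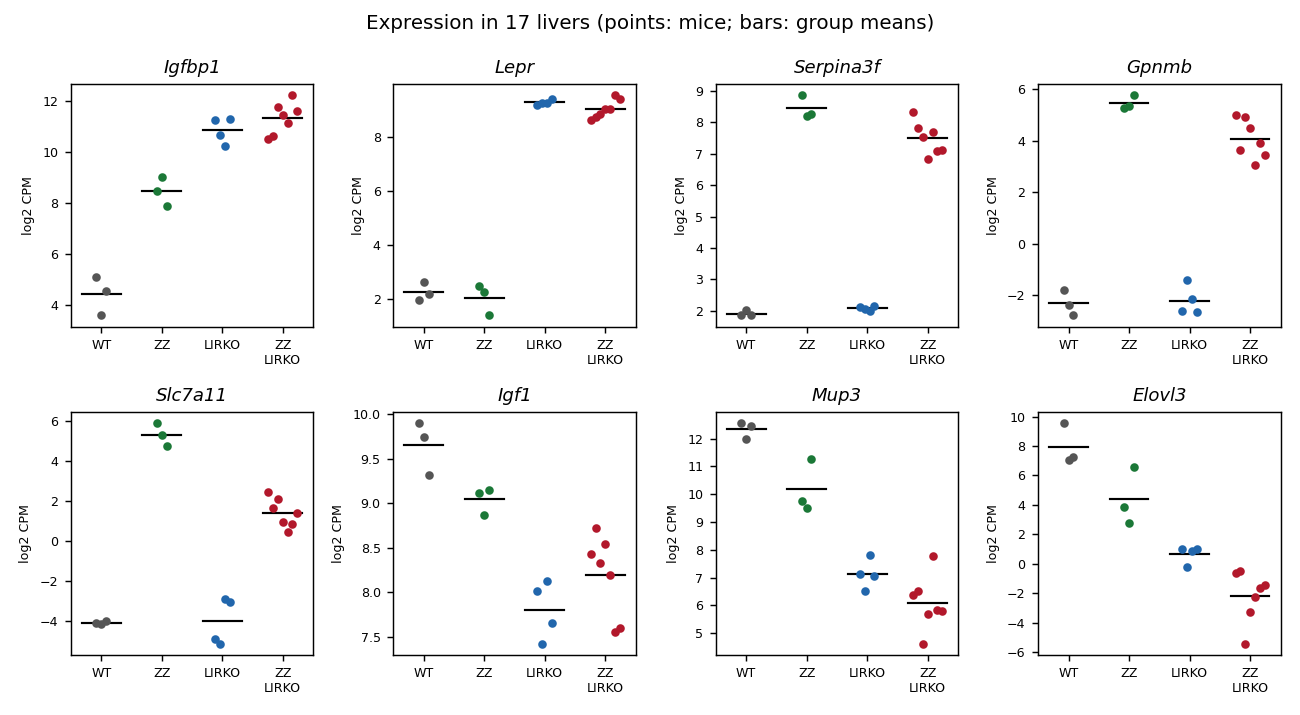
Expression of 8 genes in log2 CPM (y axis) in each of the 17 mice by group (x axis), points for mice and bars for group means. In the ZZ LIRKO column Igfbp1, Lepr, Serpina3f, Gpnmb and Slc7a11 lie above WT and Igf1, Mup3 and Elovl3 below, with no overlap between ZZ LIRKO and WT in any panel.

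In 112 genes (0.818%) the ZZ LIRKO livers stood beyond both single mutants, 58 above and 54 below WT, ZZ and LIRKO alike. This count moved with the settings: adding a value for the phase of the circadian clock to the fit gave 72, dropping the Prss2 libraries 72, and it was 45 without LIRKO mouse 1468 and 62 without LIRKO mouse 1483. The genes described come from the 6 on each side, at a mean of at least 2 log2 CPM and leaving out predicted genes, whose smallest of the 3 differences was largest. That these genes stand apart from the other groups is thus close to a condition of their choice. First above was Sult1e1, the estrogen sulfotransferase (chromosome 5, 87575969 to 87591594). It stood at 0.36, -1.50 and -2.42 in WT, -2.06, -2.25 and 0.52 in ZZ, 1.53, -0.22, -0.72 and 0.94 in LIRKO and 3.41, 4.68 and 6.55 in ZZ LIRKO. Both single mutants overlapped WT, and all 7 ZZ LIRKO mice were above all of them. The differences were 6.23 ± 0.79 from WT, 6.31 ± 0.79 from ZZ and 4.67 ± 0.72 from LIRKO (adjusted p = 2.22e-05, 4.33e-05 and 0.000963). Sult2a2 (3.69 ± 1.07, adjusted p = 0.0363 against LIRKO) and Igdcc4 (3.44 ± 0.76, adjusted p = 0.00946) belonged to the same group. The call of Sult2a2 against LIRKO was marginal. It was lost with the compared groups alone (adjusted p = 0.0708), with the clock value (0.0581) and without LIRKO mouse 1468 (0.153), 1483 (0.095) or 1600 (0.119). The same held without any 1 of ZZ LIRKO mice 1810, 1813, 1855, 1876 and 1877 (0.0508 to 0.068). Igdcc4 against LIRKO reached an adjusted p of 0.0543 with voom weights.

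The metallothioneins Mt1 and Mt2, small proteins that bind zinc and copper and are neighbours on chromosome 8, also rose beyond both lesions. Mt2 stood at 3.67, 3.80 and 4.67 in WT, 6.15, 7.21 and 6.11 in ZZ, 7.80, 7.25, 6.91 and 6.35 in LIRKO and 7.82, 8.79 and 9.65 in ZZ LIRKO. Mt1 stood at 4.67, 5.83 and 6.48 in WT, 6.43, 7.89 and 6.90 in ZZ, 8.31, 8.03, 7.80 and 7.32 in LIRKO and 8.42, 9.58 and 10.21 in ZZ LIRKO. Every ZZ LIRKO mouse was above every mouse of the other groups for both genes, a separation close to the rule that chose them. The margins from the highest LIRKO mouse were narrow, 7.82 against 7.80 for Mt2 and 8.42 against 8.31 for Mt1. Mt2 was 27.8-fold above WT (4.80 ± 0.37, adjusted p = 2.02e-07), and higher than in ZZ (2.36 ± 0.37, adjusted p = 0.000251) and LIRKO (1.77 ± 0.34, adjusted p = 0.0036). Mt1 was 13.7-fold above WT (3.77 ± 0.40, adjusted p = 4.12e-06), and higher than in ZZ (2.36 ± 0.40, adjusted p = 0.00048) and LIRKO (1.57 ± 0.36, adjusted p = 0.0124).

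Promoters of both metallothioneins are shown because these genes moved together beyond either lesion. They are RefSeq windows on GRCm38.p6, chr8:94178839-94179138 for Mt1 and chr8:94172368-94172667 for Mt2, both on the plus strand, 5′ to 3′, cut as for Igfbp1. Capitals mark the metal response element core, searched as TGCGCNC and TGCACNC on both strands, with no overlap between matches. Mt1 held 3 matches, all on the plus strand, and Mt2 held 4, with 2 on each strand. At least 1 match was present in 25.7% of 32851 promoter windows.
Mt1: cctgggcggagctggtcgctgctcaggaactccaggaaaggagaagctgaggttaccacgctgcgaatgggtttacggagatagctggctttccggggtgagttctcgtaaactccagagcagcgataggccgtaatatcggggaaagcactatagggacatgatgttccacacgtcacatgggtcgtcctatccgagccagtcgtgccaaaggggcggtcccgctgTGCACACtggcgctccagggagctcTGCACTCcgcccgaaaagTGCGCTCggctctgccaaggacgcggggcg
Mt2: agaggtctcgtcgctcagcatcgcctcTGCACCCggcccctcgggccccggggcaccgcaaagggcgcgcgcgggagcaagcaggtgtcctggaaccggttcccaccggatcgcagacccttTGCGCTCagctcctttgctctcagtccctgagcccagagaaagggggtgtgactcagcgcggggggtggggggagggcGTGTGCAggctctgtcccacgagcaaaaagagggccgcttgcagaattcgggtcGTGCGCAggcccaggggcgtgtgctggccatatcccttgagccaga

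Among genes below all 3 other groups, Plekhb1 stood at 4.97, 6.17 and 5.69 in WT and 1.82, 2.33 and 3.25 in ZZ LIRKO (-3.25 ± 0.32, adjusted p = 1.63e-06), and was lower than in ZZ (-1.36 ± 0.32, adjusted p = 0.00443) and LIRKO (-1.52 ± 0.29, adjusted p = 0.00342). Adh4, an alcohol and retinol dehydrogenase, stood at 7.47, 7.72 and 7.83 in WT and 4.71, 5.03 and 6.14 in ZZ LIRKO (-2.38 ± 0.27, adjusted p = 8.68e-06), and was lower than in ZZ (-1.35 ± 0.27, adjusted p = 0.00177) and LIRKO (-1.08 ± 0.25, adjusted p = 0.0116). No ZZ LIRKO mouse reached the lowest mouse of another group for either gene. The complement regulator Susd4, the steroid dehydrogenase Hsd3b2, the membrane protease Mme (neprilysin) and Fam47e completed the list. Their differences from WT were -2.68 ± 0.74, -2.48 ± 0.52, -1.67 ± 0.27 and -2.67 ± 0.28 (adjusted p = 0.00875, 0.00148, 0.000171 and 4.04e-06). Hsd3b2 belongs to a family with shared reads and is uncertain, and Susd4 did not pass without WT mouse 1564 (adjusted p = 0.0509).

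**Figure D3:**
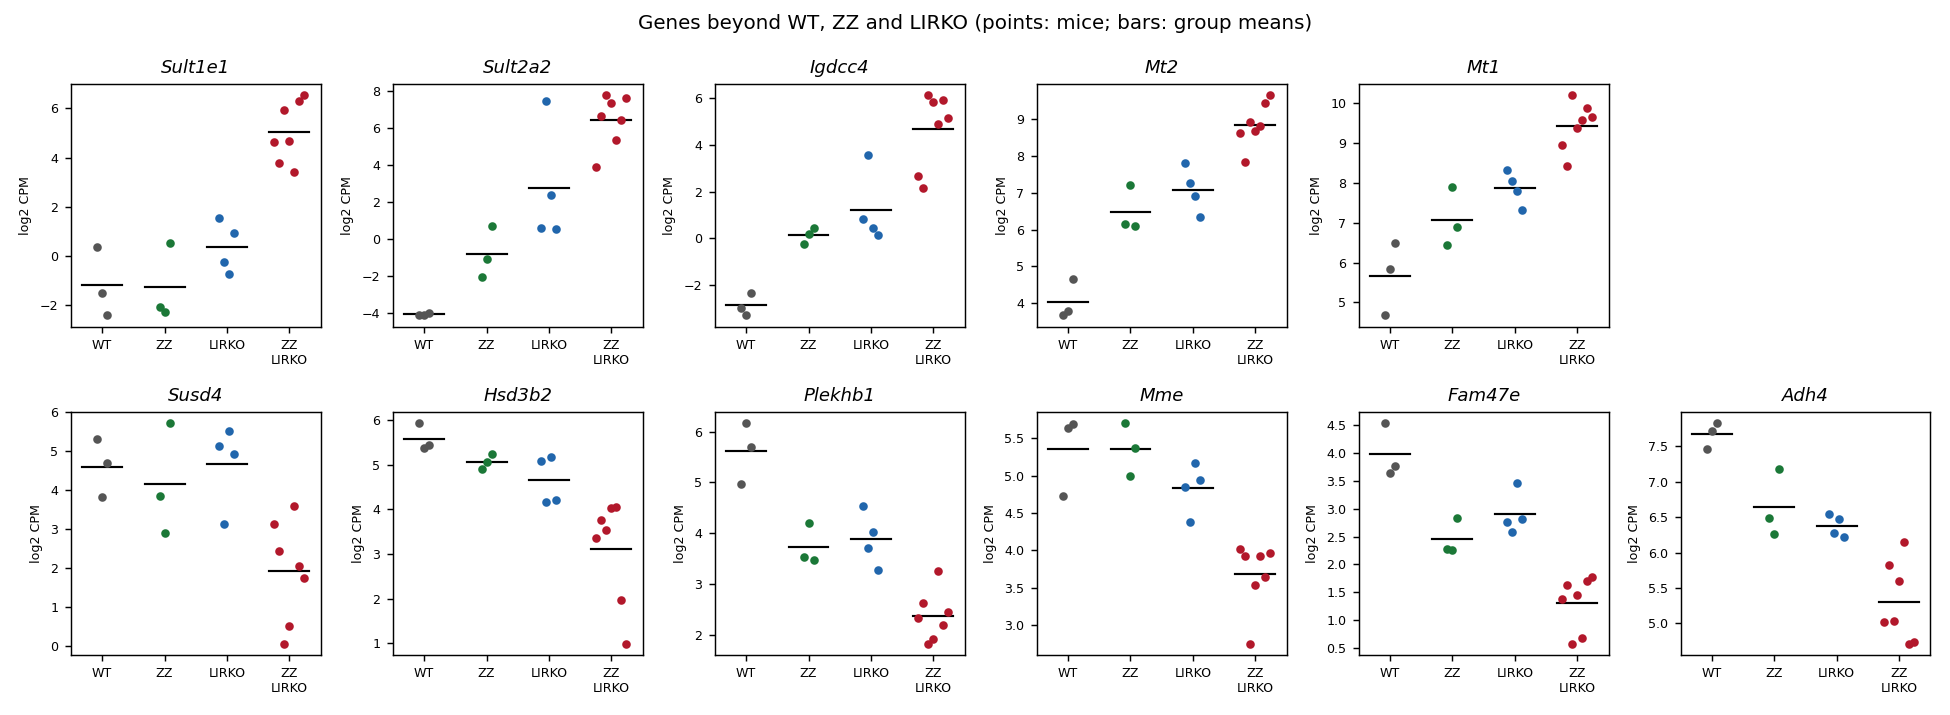
Expression in log2 CPM (y axis) of 5 of the 6 genes furthest above and the 6 furthest below all 3 other groups, for each of the 17 mice by group (x axis), points for mice and bars for group means. The ZZ LIRKO mean stands above the WT, ZZ and LIRKO means in the upper 5 panels and below them in the lower 6.

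Genes that FOXO1 activates, including those of gluconeogenesis, were mostly higher. Of 18 tested, 11 rose (61.1%) and 1 fell (5.56%), against 21.1% and 19.7% of all genes. Their median was 0.89 against -0.02 over all genes. Pck1, the enzyme that commits carbon to gluconeogenesis, stood at 10.84, 10.85 and 9.89 in WT and 11.74, 12.40 and 12.81 in ZZ LIRKO (1.90 ± 0.23, adjusted p = 1.29e-05). Its coactivator gene Ppargc1a (2.06 ± 0.22, adjusted p = 4.49e-06), the stress gene Gadd45b (3.72 ± 0.29, adjusted p = 2.39e-07) and the insulin receptor substrate gene Irs2 (2.52 ± 0.25, adjusted p = 2.17e-06) rose with it, and none of these 4 overlapped WT. Trib1, a pseudokinase gene, was the member that fell (-0.92 ± 0.33, adjusted p = 0.0347), and did not pass without WT mouse 1586 (adjusted p = 0.144) or WT mouse 1564 (0.0918). Against ZZ, 9 of these genes were higher and 1 lower, beside 13.2% and 13.6% of all genes. Against LIRKO 1 was higher and none lower (median -0.07), beside 6.83% and 3.73% of all genes. Of 21 insulin signalling genes 6 rose (28.6%, and 3 genes without mouse 1813) and 4 fell (19%), against 21.1% and 19.7% of all genes. Pik3r1, the regulatory subunit of PI3 kinase, was among those that fell (-1.29 ± 0.18, adjusted p = 4.77e-05).

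Of 19 genes of glucose handling 4 were higher (21.1%, the share of all genes) and 7 lower (36.8%, against 19.7% of all genes), the latter 4 without WT mouse 1601. The glycogen synthase gene Gys2 (1.48 ± 0.25, adjusted p = 0.000278) and the isomerase gene Gpi1 (1.11 ± 0.10, adjusted p = 9.65e-07) rose, and the fructokinase gene Khk (-0.77 ± 0.13, adjusted p = 0.000259) and Ppp1r3b, a glycogen-targeting subunit (-1.07 ± 0.23, adjusted p = 0.0016), fell. Khk was also lower than in LIRKO (-0.88 ± 0.12, adjusted p = 0.000311), at 7.0 to 7.76 in ZZ LIRKO against 8.26 to 8.43 in LIRKO. Lipogenic genes were lower, with 11 of 23 falling (47.8%) and 1 rising (4.35%, median -0.64), against 19.7% and 21.1% of all genes. Scd1, the stearoyl-CoA desaturase, stood at 12.84, 10.22 and 12.32 in WT and 6.50, 7.14 and 10.56 in ZZ LIRKO (-3.94 ± 0.72, adjusted p = 0.000517), and the highest ZZ LIRKO mouse, 1855, exceeded the lowest WT mouse, 1586. Mlxipl, which encodes the glucose-responsive factor ChREBP, stood at 9.02, 8.98 and 8.99 in WT and 8.05, 8.36 and 8.65 in ZZ LIRKO (-0.64 ± 0.11, adjusted p = 0.000367), and was lower than in LIRKO (-0.71 ± 0.10, adjusted p = 0.000551). Lpin1, which encodes the phosphatidate phosphatase lipin 1, was the lipogenic list's rising member (1.31 ± 0.43, adjusted p = 0.0216), and did not pass without WT mouse 1564 (adjusted p = 0.172). The 11 lower genes became 7 without WT mouse 1601. Of 24 cholesterol genes 0 rose and 2 fell, with a median of -0.47. The number that fell was 0 without WT mouse 1564, 1 without WT mouse 1586 or 1601 and 5 with the clock value in the fit, and 2 is 8.33% of the list against 19.7% of all genes.

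Of 26 targets of PPARA, the fasting and fatty acid receptor, 3 were higher than in WT (11.5%, against 21.1% of all genes). A further 8 were lower (30.8%, against 19.7%), with a median of -0.21 over the list. This balance rested on single WT mice, with 7 higher and 3 lower without mouse 1601 and 14 lower without mouse 1564. Cpt2, a carnitine palmitoyltransferase of mitochondria, fell (-0.51 ± 0.12, adjusted p = 0.00227), and the uncoupling protein gene Ucp2 rose by 1.57 ± 0.23 (adjusted p = 7.42e-05). Against ZZ, 10 of the targets were higher and none lower (median 0.47), beside 13.2% and 13.6% of all genes. Nuclear genes of the respiratory chain were higher than WT in 38 of 78 (48.7%) and lower in none. The step was small (median 0.31), and 21.1% of all genes were higher and 19.7% lower. Atp5b, a subunit of ATP synthase, stood at 10.11, 10.09 and 10.11 in WT and 10.49, 10.62 and 10.82 in ZZ LIRKO (0.56 ± 0.09, adjusted p = 0.000118). Against ZZ, 50 of the respiratory chain genes were higher, beside 13.2% of all genes. Against LIRKO 3 were lower and none higher, beside 3.73% and 6.83% of all genes. Cytosolic ribosomal protein genes were higher than WT in 45 of 76 (59.2%, against 21.1% of all genes) and lower in 1 (1.32%, against 19.7%). Their median was 0.39. They were lower than LIRKO in 18 (median -0.28), beside 3.73% of all genes. Rps9 is an example (0.47 ± 0.09, adjusted p = 0.000527 against WT). Without WT mouse 1586 the respiratory chain genes higher than WT numbered 24.

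Male-type genes fell. Of 20 genes that male mouse livers express more, 19 fell (95%) and 0 rose, against 19.7% and 21.1% of all genes. Their median was -3.54, and 16 did not overlap WT, beside 30.3% of all genes. Elovl3, a fatty acid elongase, stood at 9.57, 7.04 and 7.23 in WT and -5.43, -1.68 and -0.47 in ZZ LIRKO (-10.13 ± 0.95, adjusted p = 1.28e-06). Hsd3b5, a steroid dehydrogenase of a family with shared reads, stood at 7.98, 6.25 and 7.18 and -2.12, -1.27 and 0.51 (-8.04 ± 0.73, adjusted p = 9.33e-07). All 7 doubly mutant mice were far below every WT mouse for both genes. They were below ZZ (-6.57 and -5.04, adjusted p = 0.000128 for both) and below LIRKO (-2.86 and -2.42, adjusted p = 0.0433 and 0.0266). They were the 2 of the 20 genes that passed against LIRKO (median -0.65 over the list), beside 3.73% of all genes lower. LIRKO by itself had 13 of the 20 below WT (median -2.62), beside 14% of all genes. That comparison shares the WT mice. Both calls against LIRKO were lost with voom weights (adjusted p = 0.314 and 0.237), the clock value in the fit (0.0652 and 0.123) or a pseudocount of 1 CPM (0.256 and 0.117). Elovl3 was lost without any 1 of the LIRKO mice (0.0611 to 0.123), and Hsd3b5 without 1468, 1483 or 1600 (0.0602 to 0.0975). Elovl3 was also lost without ZZ LIRKO mouse 1813, 1855, 1858 or 1876 (0.0511 to 0.0672), and Hsd3b5 without 1813 (0.0526). Nudt7, a coenzyme A hydrolase of peroxisomes (-3.37 ± 0.39, adjusted p = 9.95e-06), and Cspg5 (-3.83 ± 0.44, adjusted p = 8.36e-06) also fell.

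Female-type genes moved the other way in these male mice, with 18 of 22 higher (81.8%, against 21.1% of all genes). None were lower, and the median was 2.87. Against LIRKO 4 were higher (median 0.49), beside 6.83% of all genes. LIRKO had 11 of the 22 above WT (median 1.53), beside 13.8% of all genes. Besides Sult1e1 and Cyp2a4, the xenobiotic enzyme Cyp2b10 (5.05 ± 0.56, adjusted p = 5.69e-06), the proton pump subunit Atp6v0d2 (3.27 ± 0.29, adjusted p = 8.37e-07) and the uptake transporter Slco1a4 (2.11 ± 0.21, adjusted p = 2.26e-06) rose. Of 16 genes of growth hormone and IGF action, 3 rose (18.8%) and 5 fell (31.2%), against 21.1% and 19.7% of all genes. The growth hormone receptor gene Ghr stood at 9.16, 8.79 and 8.87 in WT and 6.66, 7.24 and 7.78 in ZZ LIRKO (-1.74 ± 0.20, adjusted p = 1.07e-05). Igf1 stood at 9.90, 9.75 and 9.32 and 7.55, 8.33 and 8.73 (-1.46 ± 0.23, adjusted p = 0.000167), and Igfals, which encodes the protein that stabilises circulating IGF, fell (-2.63 ± 0.26, adjusted p = 2.16e-06). Every ZZ LIRKO mouse was below every WT mouse for these 3 genes. Igfbp2 stood at 8.98, 8.84 and 9.37 in WT, 12.51, 12.42, 12.37 and 12.08 in LIRKO and 11.46, 11.70 and 12.01 in ZZ LIRKO, above WT (2.64 ± 0.16, adjusted p = 1.39e-08) and below LIRKO (-0.64 ± 0.15, adjusted p = 0.0127). Its call against LIRKO did not hold without LIRKO mouse 1468 (adjusted p = 0.0569) or with the clock value in the fit (0.055).

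None of the ER chaperone and degradation genes rose. Of 28 tested, 0 were higher and 9 lower than in WT (32.1%, median -0.47), against 21.1% and 19.7% of all genes. Of these 28 genes, 10 were lower than in ZZ, beside 13.6% of all genes. Against LIRKO limma passed 0 of them in either direction (median 0.08), with 2 lower and 0 higher at an unadjusted p under 0.05 and 0 with voom weights. Derl2 and Sel1l, both of ER-associated degradation, fell (-0.73 ± 0.10, adjusted p = 4.98e-05, and -1.01 ± 0.15, adjusted p = 0.000108), as did Xbp1, a transcription factor of the unfolded protein response (-0.64 ± 0.13, adjusted p = 0.00127). Hspa5, which encodes the chaperone BiP and was picked after its values were seen, stood at 10.16, 11.36 and 9.27 in WT and 9.01, 9.37 and 9.74 in ZZ LIRKO (-0.93 ± 0.30, adjusted p = 0.0196). The 2 groups overlapped for Hspa5, with WT mouse 1601 inside the ZZ LIRKO range. WT mice spread widely on this list, with means of 7.68, 8.38 and 7.10 log2 CPM over its genes against 6.78 to 7.33 in ZZ LIRKO. The 9 lower genes became 5 without WT mouse 1586 and 18 without WT mouse 1601, 1 gene was higher without ZZ LIRKO mouse 1877, and Hspa5 did not pass without WT mouse 1586 (adjusted p = 0.211).

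The Hspa5 promoter is shown as the reference case of an ER stress promoter, since this gene marks the response. It is chr2:34771840-34772139, plus strand, RefSeq on GRCm38.p6, 5′ to 3′, with the ER stress element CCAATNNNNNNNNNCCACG, searched on both strands, in capitals. The window held 1 match, and 0.119% of 32851 windows held any.
Hspa5: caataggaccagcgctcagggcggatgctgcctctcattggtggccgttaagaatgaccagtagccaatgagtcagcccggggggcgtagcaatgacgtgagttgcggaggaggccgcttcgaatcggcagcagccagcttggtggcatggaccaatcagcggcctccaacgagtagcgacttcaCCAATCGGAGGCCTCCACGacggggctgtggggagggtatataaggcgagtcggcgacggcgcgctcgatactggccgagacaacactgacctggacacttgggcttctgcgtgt

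Targets of ATF4 and CHOP, the arm of the stress response that raises amino acid supply, were mixed but higher at the median. Of 18 tested, 7 rose (38.9%) and 2 fell (11.1%, median 0.72), against 21.1% and 19.7% of all genes. The cystine importer gene Slc7a11 stood at -4.11, -4.14 and -4.0 in WT, 5.89, 5.29 and 4.76 in ZZ, -4.91, -5.12, -2.90 and -3.05 in LIRKO and 0.45, 1.42 and 2.47 in ZZ LIRKO. WT libraries held 2 to 4 reads of it, ZZ mice were highest, and all 7 ZZ LIRKO mice lay between ZZ and the other groups. ZZ LIRKO differed by -3.90 ± 0.50 from ZZ (adjusted p = 5.3e-05) and by 5.49 ± 0.50 from WT (adjusted p = 1.01e-06), the latter a size that rests on few WT reads. The pseudokinase gene Trib3 (2.27 ± 0.25, adjusted p = 6.19e-06), the stress factor gene Atf3 (2.06 ± 0.34, adjusted p = 0.000205) and Sesn2, a regulator of mTORC1 (1.23 ± 0.19, adjusted p = 0.000108), rose, while Chac1, which degrades glutathione, fell (-1.47 ± 0.38, adjusted p = 0.00531). Without ZZ LIRKO mice 1876 and 1877, a setting chosen after the data were seen, 11 of the targets rose. Against ZZ 11 of these genes were lower and none higher (median -1.05), beside 13.6% and 13.2% of all genes. Against LIRKO 7 were higher and none lower (median 0.73), beside 6.83% and 3.73% of all genes. NRF2 targets, the antioxidant programme, were compared in the same way, with 8 of 21 higher (38.1%) and 1 lower (4.76%) than WT. Against ZZ 1 was higher and 13 lower, and against LIRKO 6 were higher and 1 lower. The shares of all genes were 21.1% and 19.7% against WT, 13.2% and 13.6% against ZZ, and 6.83% and 3.73% against LIRKO. Srxn1, the sulfiredoxin gene, stood at 5.03, 5.49 and 5.43 in WT, 7.96, 7.81 and 7.55 in ZZ and 6.25, 6.60 and 6.74 in ZZ LIRKO (1.23 ± 0.15, adjusted p = 1.21e-05 against WT). Hmox1, the heme oxygenase gene, was higher than in WT (1.30 ± 0.24, adjusted p = 0.000478), ZZ (0.87 ± 0.24, adjusted p = 0.0117) and LIRKO (0.73 ± 0.21, adjusted p = 0.0391). It did not pass against ZZ without ZZ mouse 1809 (adjusted p = 0.0668). Against LIRKO it did not pass with the clock value in the fit (adjusted p = 0.141) or without LIRKO mouse 1468 (0.149), 1483 (0.075) or 1600 (0.111). Nor did it without any 1 of ZZ LIRKO mice 1783, 1855, 1876 and 1877 (0.0602 to 0.0678).

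Protein disposal was read against the 21.1% higher and 19.7% lower of all genes. Of 34 autophagy and lysosome genes 8 rose (23.5%) and 11 fell (32.4%, median -0.14), and of 38 proteasome genes 2 rose (5.26%) and 1 fell (2.63%, median 0.07). The autophagosome gene Map1lc3b stood at 8.56, 8.87 and 8.33 in WT and 7.20, 7.56 and 7.84 in ZZ LIRKO (-1.05 ± 0.14, adjusted p = 4.12e-05), below WT in all 7 mice. Without mouse 1876, 5 proteasome genes rose, and the autophagy and lysosome list held 5 higher and 7 lower without WT mouse 1564 and 7 lower without WT mouse 1601.

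Serpina3f, a member of a serpin family that expanded in rodents, stood at 1.85, 2.03 and 1.86 in WT, 8.88, 8.19 and 8.27 in ZZ, 2.11, 2.07, 1.98 and 2.16 in LIRKO and 6.82, 7.54 and 8.33 in ZZ LIRKO. LIRKO mice overlapped WT, and every ZZ and ZZ LIRKO mouse lay far above both. The rise was 47.6-fold over WT (5.58 ± 0.24, adjusted p = 2.22e-10), with 5.41 ± 0.22, adjusted p = 1.82e-10 against LIRKO and -0.96 ± 0.24, adjusted p = 0.00797 against ZZ, the last not without ZZ mouse 1682 (adjusted p = 0.0702). Serpina3g, a leukocyte serpin, stood at 2.53, 2.73 and 2.96 in WT and 3.47, 3.83 and 4.21 in ZZ LIRKO and was above WT (1.11 ± 0.17, adjusted p = 9.58e-05), ZZ (1.15 ± 0.17, adjusted p = 0.000132) and LIRKO (0.89 ± 0.15, adjusted p = 0.00185). Of 14 family members 4 rose (28.6%) and 3 fell (21.4%), against 21.1% and 19.7% of all genes, and close copies share reads.

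Markers of matrix and stellate cells were higher in ZZ LIRKO than in WT, 27 of 31 (87.1%) against 0 lower (median 0.91). Of all genes 21.1% were higher and 19.7% lower. In bulk liver more cells of a type and more RNA per cell cannot be told apart. The collagen gene Col1a1, named after its values were seen, stood at 3.35, 2.05 and 2.44 in WT, 6.66, 6.53 and 6.53 in ZZ, 2.46, 2.81, 2.89 and 2.96 in LIRKO and 3.88, 4.76 and 5.66 in ZZ LIRKO. ZZ LIRKO livers were above WT and LIRKO and below ZZ without overlap with WT (2.11 ± 0.35, adjusted p = 0.00021). Of the 31 genes 16 were lower and 2 higher than in ZZ (median -0.50), beside 13.6% and 13.2% of all genes. Against LIRKO 20 were higher and none lower (median 0.61), beside 6.83% and 3.73% of all genes. The collagenase gene Mmp2 (1.78 ± 0.24, adjusted p = 4.52e-05), the crosslinking enzyme gene Loxl2 (1.38 ± 0.18, adjusted p = 2.95e-05) and thrombospondin 1 gene Thbs1 (2.65 ± 0.38, adjusted p = 5.94e-05) also rose over WT. Col5a2, a fibrillar collagen gene, stood at 1.94, 2.40 and 1.63 in WT, 4.59, 4.29 and 4.23 in ZZ, 4.06, 4.76, 6.12 and 4.40 in LIRKO and 4.46, 6.78 and 7.43 in ZZ LIRKO, above WT (4.40 ± 0.51, adjusted p = 9.14e-06), ZZ (2.02 ± 0.51, adjusted p = 0.00762) and LIRKO (1.55 ± 0.46, adjusted p = 0.0403). Its call against LIRKO did not hold with the compared groups alone (adjusted p = 0.0833) or without LIRKO mouse 1468 (0.158), 1474 (0.0947) or 1600 (0.104). Nor did it without any 1 of ZZ LIRKO mice 1810, 1813, 1855, 1858 and 1876 (0.0549 to 0.0747). Lrat and Acta2, of quiescent and activated stellate cells, differed from WT by 0.23 and 0.30 and did not pass, although Acta2 did without mice 1876 and 1877 (0.55, adjusted p = 0.0289).

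Cholangiocytes line the bile ducts. Of 11 listed genes 9 passed the filter on low values. Genes high in the 3 ZZ mice could pass it by those alone, so no count against ZZ is given. Against WT 1 was higher and 1 lower (11.1% each, median 0.14). Epcam, an epithelial adhesion gene of bile ducts named after its values were seen, stood at 0.56, 0.23 and 0.12 in WT, 3.30, 3.16 and 3.21 in ZZ, 0.93, 0.99, 0.82 and 0.31 in LIRKO and -0.23, 0.94 and 1.34 in ZZ LIRKO. The ZZ mice stood apart from the other 3 groups, which overlapped. Its difference was -2.37 ± 0.27 from ZZ (adjusted p = 1.76e-05) and 0.55 ± 0.27 from WT (adjusted p = 0.11), and the latter passed only without mouse 1876 (0.73, adjusted p = 0.00543) among the single mice left out.

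Recruited macrophage markers rose in 12 of 13 genes (92.3%), with none lower and a median of 2.22, against 21.1% and 19.7% of all genes. Members below 0 log2 CPM in WT, such as Gpnmb, could pass the filter through mutant livers alone, so the count describes the list only. Gpnmb, a glycoprotein gene of lipid-laden macrophages, stood at -1.79, -2.37 and -2.78 in WT, 5.26, 5.33 and 5.78 in ZZ, -2.59, -1.42, -2.13 and -2.65 in LIRKO and 3.06, 3.92 and 5.0 in ZZ LIRKO. LIRKO mice overlapped WT, and all 7 ZZ LIRKO mice lay above both and below ZZ. The differences were 6.37 ± 0.39 from WT, 6.26 ± 0.35 from LIRKO and -1.40 ± 0.39 from ZZ (adjusted p = 1.2e-08, 1.52e-08 and 0.0139), and that from ZZ did not pass without ZZ mouse 1846 (0.0676). Itgax, the integrin gene behind CD11c (3.0 ± 0.33, adjusted p = 6.18e-06), Lgals3, the galectin 3 gene (2.22 ± 0.23, adjusted p = 3.39e-06), Ly6c2, a monocyte marker (2.46 ± 0.26, adjusted p = 4.64e-06), and Cd63, a tetraspanin gene of lysosomes (3.32 ± 0.29, adjusted p = 6.87e-07), rose. Resident Kupffer cell markers rose in 11 of 13 (84.6%, median 0.66) and fell in 1 (7.69%), against 21.1% and 19.7% of all genes. The scavenger receptor gene Marco exceeded WT (2.12 ± 0.44, adjusted p = 0.00123), ZZ (2.02 ± 0.44, adjusted p = 0.00286) and LIRKO (1.41 ± 0.40, adjusted p = 0.0313), though WT mouse 1601, at 4.74, overlapped the ZZ LIRKO range of 4.58 to 5.72. Cd163, another scavenger receptor gene, was the member that fell (-1.62 ± 0.52, adjusted p = 0.0211). Cd163 did not pass without WT mouse 1586 (adjusted p = 0.138) or 1601 (0.0528). Marco did not pass against LIRKO without LIRKO mouse 1468 (adjusted p = 0.135), 1474 (0.0678) or 1483 (0.073). Nor did it without ZZ LIRKO mouse 1783 (0.0536), 1813 (0.0589) or 1855 (0.0507).

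Neutrophil and lymphocyte markers were sparse. Only 4 of 10 neutrophil and 10 of 17 lymphocyte genes passed the filter on low values, which a gene high in 1 group could pass by itself, so no count over them is given as support. Csf3r, the receptor of the neutrophil growth factor, stood at 0.95, 1.01 and 1.21 in WT and 1.38, 2.36 and 2.89 in ZZ LIRKO (1.26 ± 0.24, adjusted p = 0.000687), and Ighm, the IgM heavy chain gene of B cells, at 2.62, 1.09 and 2.02 and 2.88, 4.32 and 5.07 (2.10 ± 0.44, adjusted p = 0.0015). No ZZ LIRKO mouse overlapped WT for either gene. Endothelial genes rose in 13 of 18 (72.2%, median 0.54), against 21.1% of all genes. They were higher than ZZ in 12 and lower in 1, beside 13.2% and 13.6% of all genes. Cdh5, the VE-cadherin gene (0.58 ± 0.09, adjusted p = 0.000152), Vwf, the von Willebrand factor gene (1.22 ± 0.19, adjusted p = 0.000155), and Wnt9b, a zonation signal of the central vein (1.54 ± 0.25, adjusted p = 0.000171), are examples.

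Of 26 interferon and antigen presentation genes 14 rose (53.8%) and 1 fell (3.85%) against WT (median 0.71), beside 21.1% and 19.7% of all genes. Against LIRKO 18 were higher and none lower, beside 6.83% and 3.73% of all genes. Against ZZ 3 were lower and none higher, beside 13.6% and 13.2% of all genes. Oas1a, an interferon-induced antiviral gene, stood at 1.26, 0.82 and 1.60 in WT and 2.47, 2.93 and 3.11 in ZZ LIRKO (1.61 ± 0.18, adjusted p = 5.22e-06), without overlap. B2m, the invariant chain of MHC class I, was the member that fell (-0.57 ± 0.11, adjusted p = 0.000651). NF-kB genes rose in 10 of 18 (55.6%) and fell in 1 (5.56%, median 0.96), against 21.1% and 19.7% of all genes. Of 20 listed, 18 passed the filter, which genes high in mutant livers could pass by those alone. Icam1 (1.29 ± 0.15, adjusted p = 9.14e-06) and Vcam1 (1.43 ± 0.25, adjusted p = 0.000305), adhesion molecules that bind leukocytes, were among those that rose. Acute phase genes split, 9 of 24 higher (37.5%) and 3 lower (12.5%), against 21.1% and 19.7% of all genes. Lcn2, the lipocalin 2 gene, stood at 2.82, 2.08 and 2.54 in WT, 2.22, 4.37, 3.51 and 4.04 in LIRKO and 4.72, 6.08 and 7.20 in ZZ LIRKO (3.62 ± 0.47, adjusted p = 2.69e-05 against WT and 2.57 ± 0.43, adjusted p = 0.00156 against LIRKO), and Saa4, a constitutive serum amyloid gene, fell (-2.09 ± 0.19, adjusted p = 9.65e-07).

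**Figure D4:**
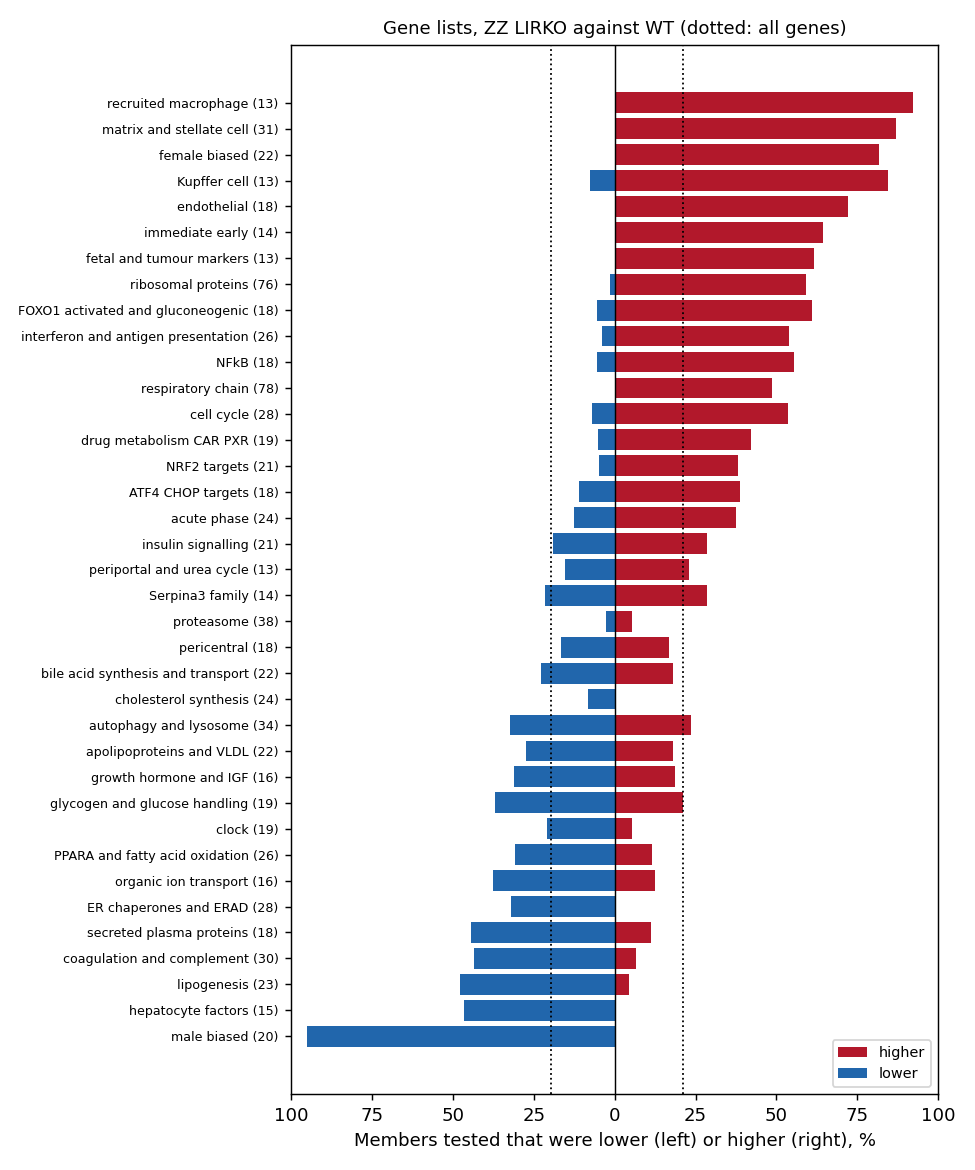
Share of tested members, in percent (x axis), that were higher (right) or lower (left) in ZZ LIRKO than in WT at an adjusted p under 0.05, for the 37 gene lists with at least 13 members tested (y axis), with dotted lines at the 21.1% higher and 19.7% lower of all 13690 genes. Male-type genes reach furthest to the left and recruited macrophage, matrix and female-type genes far to the right. The fetal and tumour marker and immediate early lists are drawn but not read as results. Their members could pass the filter through mutant livers alone, as could some of the recruited macrophage, cell cycle and NF-kB lists.

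Of 15 hepatocyte transcription factors 7 fell (46.7%) and 0 rose (median -0.43), against 19.7% and 21.1% of all genes. Onecut1, which encodes HNF6, stood at 6.79, 7.49 and 6.47 in WT and 3.23, 3.53 and 5.66 in ZZ LIRKO (-3.05 ± 0.40, adjusted p = 3.1e-05), and Cebpa at 9.27, 9.31 and 9.26 and 7.77, 8.23 and 8.38 (-1.14 ± 0.17, adjusted p = 8.84e-05). All 7 mice were below WT in both, and for Onecut1 mouse 1783 stood apart above the other 6. Hnf4a, the central factor of hepatocytes and named after its values were seen, differed from WT by 0.02 ± 0.16 (adjusted p = 0.93). Secreted plasma protein genes fell in 8 of 18 (44.4%) and rose in 2 (11.1%), against 19.7% and 21.1% of all genes. Among them Ttr, the transthyretin gene (-1.60 ± 0.16, adjusted p = 2.13e-06), and Alb (-0.84 ± 0.28, adjusted p = 0.0229) fell, and Ahsg, the fetuin A gene (0.88 ± 0.16, adjusted p = 0.000414), rose. Alb did not pass without WT mouse 1586 (adjusted p = 0.064) or WT mouse 1601 (0.0763).

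Complement and coagulation genes fell in 13 of 30 (43.3%) and rose in 2 (6.67%, median -0.17), against 19.7% and 21.1% of all genes. The falls were largest for components of the membrane attack complex, C6 (-3.08 ± 0.37, adjusted p = 1.26e-05), C8a (-2.13 ± 0.26, adjusted p = 1.64e-05), C9 (-1.52 ± 0.31, adjusted p = 0.00109) and C8b (-1.36 ± 0.22, adjusted p = 0.000205). C8g, which encodes the gamma chain of C8, stood at 8.05, 7.80 and 8.02 in WT and 6.89, 6.98 and 7.10 in ZZ LIRKO (-0.97 ± 0.08, adjusted p = 3.35e-07), and was also below ZZ (-0.27 ± 0.08, adjusted p = 0.0181) and LIRKO (-0.42 ± 0.07, adjusted p = 0.00169). The difference from ZZ did not pass without ZZ mouse 1809 (adjusted p = 0.0917) or 1846 (0.0972), or with libraries centred on their median (0.0536). Pros1, the protein S gene (1.14 ± 0.15, adjusted p = 2.55e-05), and Kng1, the kininogen gene (0.83 ± 0.14, adjusted p = 0.000246), rose.

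Genes of transport and detoxification are given beside the 21.1% higher and 19.7% lower of all genes. Slc10a2, a sodium-dependent bile acid transporter, stood at 5.71, 6.08 and 5.72 in WT and -1.25, 0.14 and 2.24 in ZZ LIRKO (-5.75 ± 0.58, adjusted p = 2.47e-06), and the export pump Abcc4 at 1.23, 1.84 and 1.26 and 3.98, 4.35 and 5.50 (3.04 ± 0.28, adjusted p = 9.65e-07). All 7 mice were below WT for the first gene and above WT for the second. In all, 4 of 22 bile acid genes rose (18.2%) and 5 fell (22.7%), shares near those of all genes. Of 16 organic ion transporters 2 rose (12.5%) and 6 fell (37.5%), with Slc22a28 (-4.81 ± 0.52, adjusted p = 5.17e-06) and Slco2b1 (-1.80 ± 0.28, adjusted p = 0.00014) among the latter. Genes of the xenobiotic receptors CAR and PXR rose in 8 of 19 (42.1%) and fell in 1, with Por, the electron donor of P450 enzymes (1.74 ± 0.28, adjusted p = 0.000178), higher and Aldh1a1, a retinal dehydrogenase (-2.29 ± 0.30, adjusted p = 2.75e-05), lower. Apolipoprotein and lipoprotein genes rose in 4 of 22 (18.2%) and fell in 6 (27.3%), with Apom (1.16 ± 0.15, adjusted p = 2.94e-05) higher. Pericentral genes rose and fell in 3 each of 18 (16.7%), near the shares of all genes, with 5 higher and 1 lower without WT mouse 1601, 1 lower without WT mouse 1586 and 5 higher without ZZ LIRKO mouse 1876. Likewise, periportal genes rose in 3 and fell in 2 of 13 (23.1% and 15.4%). Cyp2f2, a periportal P450 gene, fell (-1.70 ± 0.18, adjusted p = 4.39e-06). Periportal genes higher than WT ranged from 1 without WT mouse 1586 or 1601 to 7 without WT mouse 1564.

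Cell cycle genes were higher in 15 of 28 (53.6%) and lower in 2 (7.14%, median 1.02), against 21.1% and 19.7% of all genes. Of 30 listed, 28 passed the filter, which genes high in mutant livers could pass by those alone, so the count describes the list only. With genes held to 2 log2 CPM in 3 libraries, 7 were higher. Ccnd1, the cyclin D1 gene, stood at 4.54, 5.23 and 5.25 in WT and 6.36, 7.29 and 7.96 in ZZ LIRKO (2.08 ± 0.30, adjusted p = 6.19e-05), and the proliferation marker gene Mki67 at 1.82, 0.46 and 0.93 and 2.22, 3.18 and 3.53 (1.96 ± 0.32, adjusted p = 0.000173). Both were above WT in all 7 mice. The mitotic cyclin gene Ccnb2 (2.99 ± 0.47, adjusted p = 0.000139) and Cdc20, an activator of the anaphase complex (2.42 ± 0.37, adjusted p = 0.000103), rose, and the cell types behind these reads were not tested. Of 17 fetal and tumour marker genes 13 passed the filter, which genes high in mutant livers could pass by those alone, so no count over them is given. Among them Ly6d stood at -0.82, -0.35 and 1.72 in WT, 7.82, 8.14 and 6.42 in ZZ, 1.44, 3.0, 1.66 and 3.26 in LIRKO and 3.89, 5.73 and 7.56 in ZZ LIRKO (5.74 ± 0.70, adjusted p = 1.63e-05 against WT), and Igf2bp3, a fetal RNA-binding protein gene, was above WT (3.62 ± 0.46, adjusted p = 2.05e-05) and below LIRKO (-1.86 ± 0.41, adjusted p = 0.00963). Immediate early genes, of which 14 of 16 passed the filter, carry the same limit, and no count over them is given. Egr1 (2.02 ± 0.26, adjusted p = 2.62e-05), Fos (2.70 ± 0.39, adjusted p = 7.34e-05) and Ier3 (2.58 ± 0.25, adjusted p = 1.38e-06) rose.

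**Figure D5:**
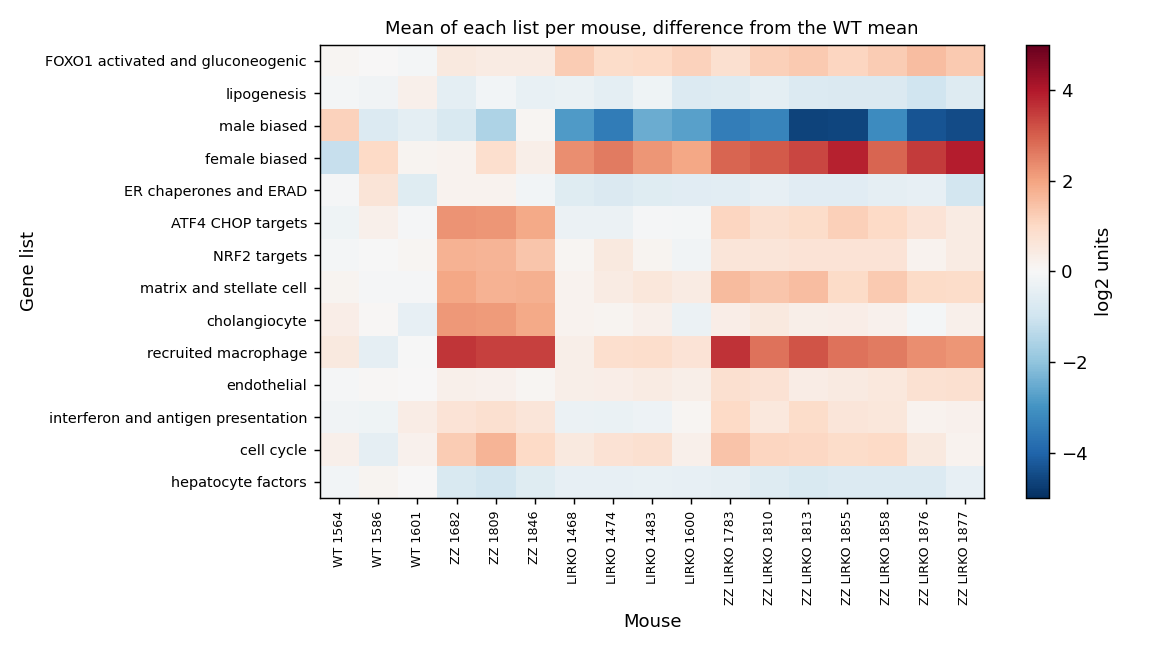
Mean log2 CPM over the members of 14 gene lists (rows) in each of the 17 mice (columns), as the difference from the mean of the 3 WT mice in log2 units (colour scale). All 7 ZZ LIRKO columns are below WT in the male-type row and above WT in the female-type row.

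Spread among the 7 ZZ LIRKO mice was measured gene by gene. The median SD over genes was 0.224 log2 units in ZZ LIRKO (7 mice), 0.186 in WT (3), 0.171 in ZZ (3) and 0.152 in LIRKO (4). A median SD depends on group size, so these values are given side by side only. The third principal component (9.04% of variance) set mice 1876 and 1877, at 49.5 and 41.9, apart from the other 5, which lay at -14.0 to 3.70. These 2 mice were also lowest of the 7, at -1.89 and -0.35, on a clock value, the mean of Dbp, Tef, Per3, Nr1d2 and Hlf minus that of Arntl, Npas2, Clock, Cry1 and Nfil3, which rises and falls over the day. It was 1.55 ± 1.94 (SD) log2 units in ZZ LIRKO, 0.27 ± 1.29 in WT, 3.40 ± 0.83 in LIRKO and 0.17 ± 1.44 in ZZ, and the time of day of sampling is not given in the labels. Of 19 clock genes 1 rose (5.26%) and 4 fell (21.1%) against WT, beside 21.1% higher and 19.7% lower of all genes. Without mice 1876 and 1877, 5 clock genes rose and 7 fell. Per1, a core clock gene, stood at 1.28, 2.75 and 2.82 in WT and 3.71, 5.44 and 6.36 in ZZ LIRKO (2.82 ± 0.54, adjusted p = 0.000684).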

How the data were processed

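Liver RNA was sequenced from 17 mice of the homozygous table. Per the submitters' processing notes, STAR 2.0.4b, Subread and featureCounts 1.4.5 were used with GRCm38; the labels state neither annotation nor strand setting, so antisense pairs cannot be told apart. The values deposited by the authors are log2 CPM; they correspond to whole reads plus 0.5 over an effective library size, and 100.0% of the values gave whole reads within 0.01 reads. Library totals were 38.2 M to 90.1 M reads, and 3 reads corresponded to a median of -4.21 log2 CPM.

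The table held 13796 lines. After 55 repeated lines were dropped, 13741 genes remained, 20 symbols changed to dates were restored, and 13736 genes were matched to GENCODE M21. Genes at 0 log2 CPM or more in at least 3 libraries were tested (13690). limma 3.58.1 in R 4.3.3 fitted 1 mean per group over the 17 libraries with a variance trend, and p-values were Benjamini-Hochberg adjusted over all genes tested. The fit was tested on simulated data. Depth was compared by an exact permutation test. Lists were counted, not tested as sets.

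Named were the 12 largest rises and falls without overlap between groups, at a mean of at least 2 log2 CPM and leaving out predicted genes; by the same limits, the 6 genes furthest beyond all other groups on each side; Insr, Foxo1 and the Serpina1 genes; and the 4 members of lowest p in each list (6 in lists with at least 50% passing). Some genes that this rule names are not reported here. Acta2, Cd163, Chac1, Col1a1, Epcam, Hnf4a, Hspa5, Lpin1, Lrat and Trib1 were chosen after their values were seen. Members and gene lists were chosen with earlier results of these data known. Alternatives were another floor, no filter, a pseudocount of 1 CPM, median centring, voom weights, a clock covariate, the compared groups alone, and libraries left out. Promoters came from RefSeq.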

Additional observations from a re-analysis of the deposited data

Results flagged for a closer look

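Of 61 sets of ZZ LIRKO or LIRKO values checked, 3 were marked, about the number that chance gives. In these 3 genes, 1 of the 7 ZZ LIRKO mice stood apart from the other 6 by a gap that exceeds Dixon's 95% critical value for 7 samples, which chance exceeds in about 1 in 20 such groups. The bile acid exporter gene Abcc4 stood at 5.50 log2 CPM in mouse 1855. Foxo1 stood at 5.91 log2 CPM in mouse 1876, above every other mouse of the table. Onecut1 stood at 5.66 log2 CPM in mouse 1783, within the LIRKO range of 5.02 to 5.87.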

How the results depend on the processing

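Against WT, the 5577 genes that passed became 2467 without the libraries above 0 log2 CPM of Prss2 (1395 higher, 1072 lower), a setting with 1 WT and 2 ZZ mice; under every other alternative run, the count stayed within 1.5 times. With 1 mouse left out in turn, the counts ranged from 4328 to 5769 against WT, from 2548 to 3750 against ZZ (1232 to 1918 lower) and from 621 to 1500 against LIRKO (451 to 952 higher, 170 to 565 lower), and the genes beyond both lesions from 45 to 141. The 112 genes beyond both lesions became 72 with the clock covariate and 72 without the Prss2 libraries. Reversed signs were found only for differences that did not pass: Foxo1 against WT was 0.0194 with the clock covariate; Hnf4a against WT ranged from -0.0891 to 0.233 without 1 mouse and was -0.116 without mice 1876 and 1877; Insr against LIRKO ranged from -0.110 to 0.0381 without 1 mouse; and Lrat against WT ranged from -0.0656 to 0.444 without 1 mouse and was -0.202 without the Prss2 libraries. The cause of these shifts was not tested. Other named genes that lost a call are given with their results. No paired analysis was possible because the compared groups hold different mice. The planned edgeR and DESeq2 fits were not run; voom on the recovered reads was run in their place. With 3 WT mice, WT values carry the least replication of the comparison, and genes near 3 reads are limited by depth.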
